A study of Mus musculus with 12 samples.

Results

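The transcription factor NRF2 (gene Nfe2l2) and 38 genes of the antioxidant system around it were followed through 12 one-colour Agilent expression arrays of the BV-2 line, immortalised microglia from mouse. The 39 genes are known NRF2 targets, NRF2's regulators, and enzymes of the glutathione, thioredoxin and NADPH systems. They were sorted by role into 3 regulators, 7 glutathione genes, 5 thioredoxin genes, 6 NADPH genes, 15 phase II (detoxification and export) genes and 3 other antioxidant genes. Probes were matched through their RefSeq accession, and the brightest probe stood for a gene. A probe was found for 38 genes, all but the carbonyl reductase gene Cbr1. Cbr3, a related reductase, and the glutathione transferase gene Gsta4 were not well above background on any array, which left 36 genes among the 19315 genes and transcripts tested, 12655 of them with a gene symbol.

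The 4 groups held 3 arrays each. They were BV-2 cells left untreated, cells treated for 6 h with 20 µM curcumin (a polyphenol of turmeric), cells treated for 6 h with 100 ng/ml lipopolysaccharide (LPS, a bacterial product that activates Toll-like receptor 4), and cells given both agents at these doses for 6 h. All groups share 1 immortalised line, and the labels state no vehicle, no time for the untreated cells and no separate cultures, so p-values measure only the spread between these arrays, which may be technical. The question the series poses is how curcumin changes gene expression in resting and LPS-activated microglia. In bulk RNA such as this, fewer cells of a type and less RNA per cell cannot be told apart.

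NRF2 is a transcription factor that the adaptor KEAP1 holds in the cytoplasm and delivers for degradation. Electrophiles and oxidants modify cysteines of KEAP1, NRF2 then accumulates and, with a small MAF protein, binds antioxidant response elements near its target genes. The targets make glutathione and thioredoxin, regenerate the NADPH that both systems consume, and conjugate and export foreign compounds. Curcumin is an electrophile and is widely studied as an activator of this pathway, which in microglia is also known to temper inflammatory activation.

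The core of the antioxidant response element was searched for in RefSeq promoters (assembly GRCm38.p6, 250 bases before to 50 bases after each start site) as TGACNNNGC on either strand. Of the 39 genes, 34 had a promoter entry and 12 of these (35.3%) held the core in a window, against 14.0% of 27025 genes with an entry; by window the shares were 28.9% of 45 and 12.4% of 32851. The 12 genes were Abcc4, G6pdx, Gclm, Me1, Mgst1, Nfe2l2, Pgd, Prdx1, Sod1, Srxn1, Txnrd1 and Ugdh. The pattern can overlap the AP-1 site TGACTCA, as it does in Me1 (TGACTCAGC) and, read on the opposite strand, in Prdx1 (GCTGAGTCA). No entry was used for Gclc, Gsr, Prdx6, Gsta4 and Abcc1. A match describes letters, not a bound site, and a gene without a match may hold the core outside the window. The 4 stretches of 100 bases below are shown because Gclm, Prdx1 and Txnrd1 held the core and were called higher after curcumin on 75th-percentile scaling, while Nfe2l2, the factor's own gene, also held it and was not. Capitals mark the core, all lie upstream of the start site, and each is printed 5′ to 3′ on the gene's strand. They lie at chr3:122245378-122245477 (plus strand), chr4:116685421-116685520 (plus), chr10:82859069-82859168 (plus) and chr2:75704814-75704913 (minus), with the core starting 134, 133, 92 and 240 bases before the start site.
Gclm: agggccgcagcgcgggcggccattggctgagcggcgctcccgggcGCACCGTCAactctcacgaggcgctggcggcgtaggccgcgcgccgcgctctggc
Prdx1: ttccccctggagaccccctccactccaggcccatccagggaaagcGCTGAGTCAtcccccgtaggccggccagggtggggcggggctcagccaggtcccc
Txnrd1: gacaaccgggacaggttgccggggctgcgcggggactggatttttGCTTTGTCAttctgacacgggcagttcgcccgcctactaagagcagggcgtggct
Nfe2l2: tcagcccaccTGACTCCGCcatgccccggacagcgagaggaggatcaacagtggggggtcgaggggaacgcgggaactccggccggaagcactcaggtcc

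Levels are log2 signals minus the array's own 75th percentile (75th-percentile scaling), so 0 is the 75th percentile and a difference of 1 is a doubling. All members were also fitted after scaling on 7 RNA spike-ins of known amount added to each sample (spike-in scaling), because the 2 scales parted with curcumin. Most fold changes are given on both scales, and one given alone is on 75th-percentile scaling unless stated. The 75th percentile stood 1.09 ± 0.18 below the spike-ins in untreated cells (mean ± SD, n = 3) and 2.19 ± 0.15 below them with curcumin. The 75th percentile minus the spike-ins was -1.36 ± 0.15 with LPS and varied most with both agents, at -2.10 ± 0.66. With both agents it was -1.36, -2.33 and -2.62 in replicate order, a spread that enters the spike-in values of that group. The median of all genes tested was 0.41 higher after curcumin on the first scale and lower by 0.69 on the second (log2 fold change -0.69). The change in the gap between the 75th percentile and the spike-ins sets only the difference between these 2 values. What set these shifts was not tested. A gene was called at an adjusted p below 0.05 in limma, with Benjamini-Hochberg adjustment over all 19315 genes, and errors of fold changes are standard errors with 3 arrays per group.

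LPS+curcumin replicate 1 stood apart from its group: its mean correlation was 0.982 with the LPS arrays and 0.944 with the other 2 arrays of its own group, so results are also given without it. The 12 arrays lie on 3 slides, replicate number and slide coincide, and each group sits at 1 fixed position of all slides, so position and group cannot be told apart. Between 58.0% and 65.9% of spots were well above background and none was saturated, and the number of arrays limits the precision. LPS+curcumin replicate 2 had 1594 outlier spots, against 87 to 163 on the other arrays. LPS+curcumin replicate 3 had the dimmest 75th percentile, a signal of 304.5 against 473.3 to 979.3 on the others. Of 9 microglia and macrophage markers matched, 8 were well above background on all 12 arrays and Cx3cr1 on 9. Of the astrocyte markers 0 of 6 were, and Gfap was so on none, whereas the neuronal marker Tubb3, the endothelial marker Kdr and the oligodendrocyte markers Mag and Mobp were above background on all 12.

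LPS alone was followed by higher signals of 3 of the 36 genes on 75th-percentile scaling: Slc7a11, which encodes the cystine importer that feeds glutathione synthesis, Sqstm1, which encodes the autophagy receptor p62 that binds KEAP1, and Txnrd1, the cytosolic thioredoxin reductase. No member was called lower. Of all genes tested, 4.12% were called higher and 1.61% lower. At an unadjusted p below 0.05 in limma, 6 members were higher and 2 lower (Ephx1 and Idh1), against 8.7% and 6.91% of all genes. On spike-in scaling 0 members were called in either direction, against 1.82% of all genes higher and 1.39% lower. There, 2 members were higher and 3 lower at an unadjusted p below 0.05, against 4.46% and 11.8% of all genes. The members' median log2 fold change was 0.01, as was that of all genes tested (0.01), and 18 of the 36 lay above the median of all genes. Single arrays moved this small count: it was 1 without LPS replicate 1, LPS replicate 2 or untreated replicate 2, and 2 without untreated replicate 1 or 3. The share of all genes called in these fits is not given, so the counts do not single out the members. Without LPS+curcumin replicate 1, whose values bear on this contrast by way of the pooled error, 5 were called higher and 1 lower, against 6.17% and 3.33% of all genes. Slc7a11 and Sqstm1 were then called on both scalings, as 4.18% of all genes were.

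Slc7a11 read -3.95, -3.31 and -2.75 in the 3 untreated arrays, and 0.36, 0.30 and 0.33 with LPS, in replicate order. The LPS arrays nearly coincided and all lay above the untreated arrays. Such separation held for 8 members and 16.7% of all genes, and on both scalings for 6 members and 7.43% of all genes. The Slc7a11 difference was 3.67 ± 0.74 on the log2 scale, or 12.7-fold (limma, adjusted p = 0.0136). Scaled on the spike-ins it was 3.39 ± 0.93 (adjusted p = 0.0822). Within slides 1, 2 and 3 it was 4.32, 3.61 and 3.08. Without LPS+curcumin replicate 1 the spike-in value was called too (adjusted p = 0.00267).

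Sqstm1 read 6.29, 5.66 and 5.82 untreated and 7.51, 7.07 and 6.96 with LPS, with no overlap between the groups. The rise was 1.25 ± 0.22, or 2.39-fold (adjusted p = 0.00585 in limma), and its call held whichever single array was left out. On spike-in scaling the value was 0.98 ± 0.31 (adjusted p = 0.136, and 0.0231 without LPS+curcumin replicate 1). Txnrd1 read 5.68, 5.43 and 5.68 untreated and 6.58, 6.46 and 6.24 with LPS, again without overlap. It rose by 0.83 ± 0.17, or 1.78-fold (adjusted p = 0.0158), with 0.55 ± 0.33 on spike-in scaling (adjusted p = 0.442).

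The partners of Txnrd1 in the thioredoxin system did not pass the test. Prdx1, a peroxiredoxin that reduces hydrogen peroxide, read 5.70, 5.56 and 5.79 untreated against 6.26, 6.21 and 6.43 with LPS, a difference of 0.62 ± 0.19 (adjusted p = 0.0958). Srxn1, sulfiredoxin, which restores overoxidised peroxiredoxins, read 4.84, 4.36 and 4.83 against 5.81, 5.51 and 5.55, a difference of 0.95 ± 0.51 (adjusted p = 0.449). In both genes the groups did not overlap on either scaling, as held in this direction for 7.43% of all genes. The intervals of the difference were 0.20 to 1.04 for Prdx1 and -0.17 to 2.07 for Srxn1 (95%). Txn1, thioredoxin itself, differed by 0.07 ± 0.32, with an interval of -0.64 to 0.78.

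Among the regulators, Nfe2l2 read 4.05, 4.0 and 4.08 untreated and 4.64, 4.61 and 4.57 with LPS. The groups were tight and did not overlap, but the difference of 0.56 ± 0.30 was not called (adjusted p = 0.447) in a fit that pools the error over all 4 groups. On spike-in scaling it was 0.28 ± 0.51. Keap1 differed by 0.18 ± 0.24, or -0.10 on spike-in scaling.

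Both subunits of glutamate-cysteine ligase, the rate-limiting enzyme of glutathione synthesis, missed the threshold after LPS. Gclc, the catalytic subunit, read 2.78, 2.99 and 2.95 untreated and 1.74, 1.86 and 2.18 with LPS, all 3 below every untreated array, as held for 15.8% of all genes. The difference was -0.98 ± 0.46 (adjusted p = 0.34), -1.26 on spike-in scaling, and -1.04, -1.14 and -0.77 within the slides. Gclm, the modifier subunit, read -1.51, -1.16 and -0.71 untreated and -1.40, -1.11 and -0.59 with LPS, a difference of 0.09 with an interval of -0.61 to 0.80.

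The NADPH-producing enzymes, the phase II genes and the remaining antioxidant genes gave no call after LPS. Fold changes ran from -0.57 (Idh1, cytosolic isocitrate dehydrogenase) to 0.17 (Pgd) in the 6 NADPH genes. Their median was 0.01, and -0.26 on spike-in scaling. In the 12 phase II genes tested they ran from -0.65 (Ephx1, microsomal epoxide hydrolase) to 0.56 (Abcc1, an export pump for glutathione conjugates), with a median of -0.10. Nqo1, the quinone reductase often used as the readout of NRF2 activity, differed by 0.35 ± 0.42, with an interval of -0.58 to 1.29. Idh1 had the smallest adjusted p of the genes below 0 (0.0899), and without LPS+curcumin replicate 1 it was called lower on both scalings (-0.57, adjusted p = 0.0495, and -0.85, adjusted p = 0.0403), as 3.33% of all genes were, with 5.87% called lower on spike-in scaling.

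**Figure D1:**
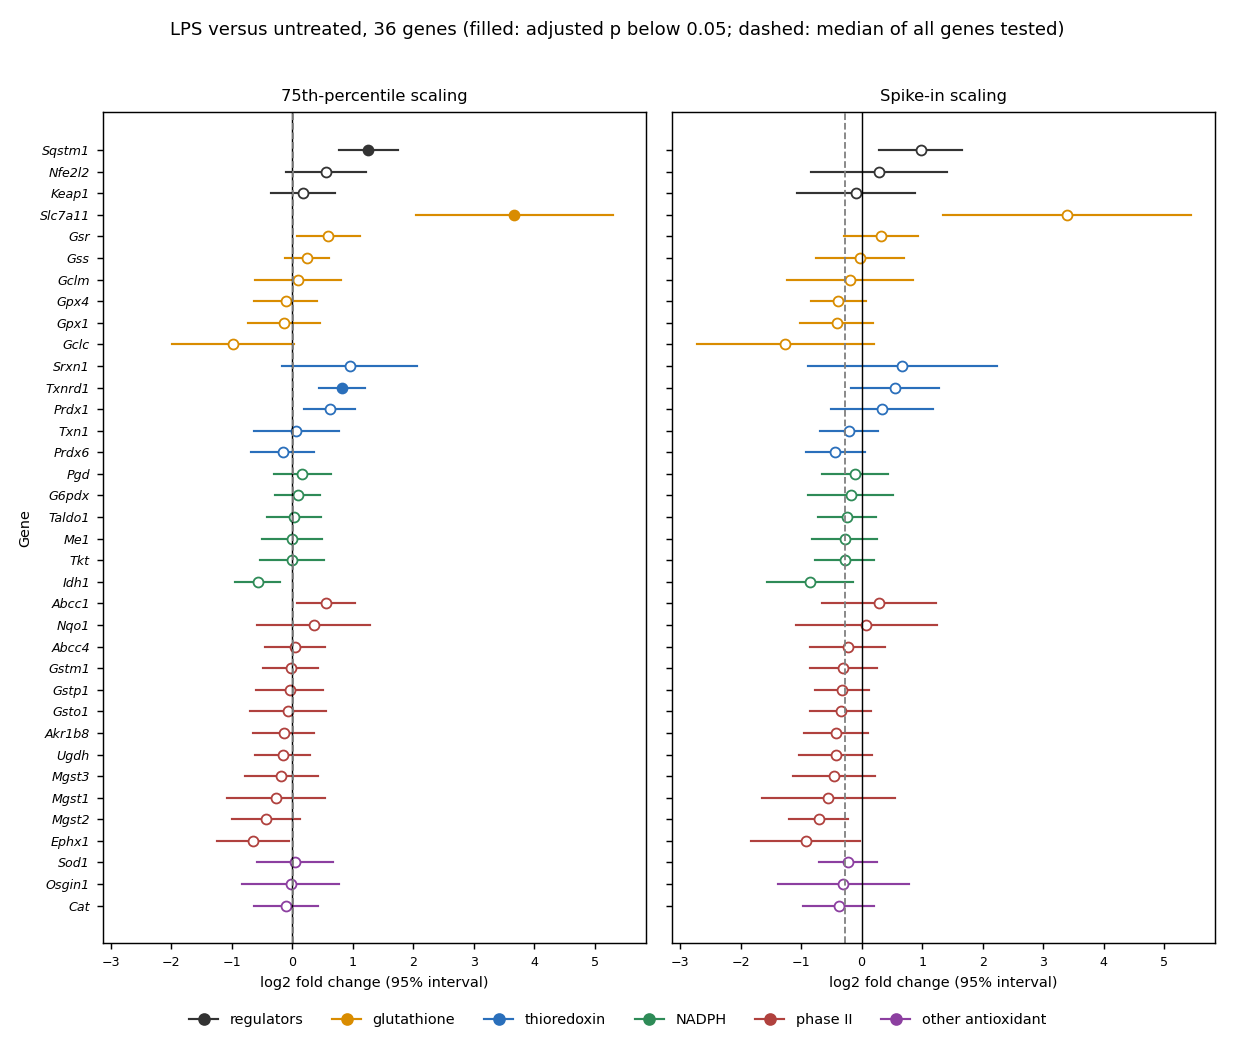
Log2 fold changes of the 36 genes for LPS versus untreated (x axis, points with 95% intervals, 3 arrays per group), grouped and coloured by role, on 75th-percentile scaling (left) and spike-in scaling (right). Filled points have an adjusted p below 0.05: Slc7a11 (3.67), Sqstm1 (1.25) and Txnrd1 (0.83) on the left and none on the right, and the dashed lines mark the median of all genes tested, 0.01 and -0.27.

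By the probe that stood for each gene, curcumin alone gave higher calls in every role group on 75th-percentile scaling and in none on spike-in scaling. Among the regulators only Sqstm1 was called higher. On spike-in scaling 6 of the 36 genes had positive values, as did 2822 of all 19315 genes tested. On 75th-percentile scaling, 13 of 36 genes were called higher and 0 lower, against 21.9% of all genes higher and 7.27% lower. At an unadjusted p below 0.05 in limma, 22 were higher and 0 lower, against 34.8% and 12% of all genes. The 13 comprised Sqstm1, the glutathione genes Gclm, Gss, Gsr and Gpx4, the thioredoxin genes Txnrd1, Prdx1 and Prdx6, the NADPH genes Taldo1 and Tkt, the phase II genes Nqo1 and Gstm1, and Osgin1. On spike-in scaling 0 were called higher and 8 lower, against 7.21% and 42.4% of all genes, so no member was called in the same direction on both. At an unadjusted p below 0.05 the spike-in counts were 0 and 8 too, against 7.92% and 51.1% of all genes. The 8 were Nfe2l2, Keap1, Idh1, Me1, Akr1b8, Ugdh, Mgst2 and Abcc4.

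The place of a gene among all genes tested does not move when an array is rescaled by a constant. By fold change after curcumin, 27 of the 36 members lay above the median of all genes, and the median member stood at percentile 67.8. Only 1 member, Slc7a11 (percentile 91.0), lay in the top 10%, and 0 lay in the bottom 10%. Next came Sqstm1 (90), Gclm (89.7), Nqo1 (89.2), Osgin1 (88.4) and Gsr (88.3), and Nfe2l2 was the lowest at 17.2. The members' median fold change was 0.69 against 0.41 for all genes, and -0.42 against -0.69 on spike-in scaling.

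Sqstm1 had the largest fold change among the called members. Its signal read 6.29, 5.66 and 5.82 untreated and 7.54, 7.43 and 7.34 with curcumin, so the lowest curcumin array stood above the highest untreated one. The rise was 1.51 ± 0.22, or 2.85-fold (adjusted p = 0.00153 in limma), against 0.41 ± 0.31 (adjusted p = 0.272) with the spike-ins.

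In the glutathione group 4 of 7 genes were called, among them the modifier but not the catalytic subunit of the rate-limiting ligase. Gclm read -1.51, -1.16 and -0.71 untreated and 0.16, 0.67 and 0.22 with curcumin, without overlap, and rose by 1.48 ± 0.32 (2.79-fold, adjusted p = 0.00808). Gclc read 2.78, 2.99 and 2.95 untreated against 2.79, 3.13 and 2.18 with curcumin, overlapping groups with a difference of -0.20 ± 0.46 and an interval of -1.21 to 0.80. On spike-in scaling Gclm differed by 0.37 ± 0.47 (adjusted p = 0.502) and Gclc by -1.31 ± 0.67 (adjusted p = 0.115). The difference between the 2 subunits was not tested.

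Gss, glutathione synthetase, rose by 0.95 ± 0.17 (adjusted p = 0.00304). Slide by slide this was 0.92, 0.91 and 1.01. Gsr, the reductase that regenerates glutathione with NADPH, read 2.45, 1.80 and 2.02 untreated and 3.44, 3.37 and 3.43 with curcumin. The curcumin arrays nearly coincided, and the rise was 1.33 ± 0.24 (2.51-fold, adjusted p = 0.00325). Its other 2 probes gave smaller rises of 0.74 and 0.78 (adjusted p = 0.0184 and 0.0273 over all probes). Gpx4, the peroxidase of lipid hydroperoxides, rose by 0.81 ± 0.23 (adjusted p = 0.027), and Gpx1, the abundant cytosolic peroxidase, differed by 0.56 ± 0.27 (adjusted p = 0.121). On spike-in scaling Gss, Gpx4 and Gpx1 had negative values (-0.16, -0.29 and -0.55) and Gsr was at 0.22, none of them called.

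Of the 5 thioredoxin genes 3 were called. Txnrd1 read 5.68, 5.43 and 5.68 untreated and 6.32, 6.46 and 6.43 with curcumin, without overlap, a rise of 0.81 ± 0.17 (1.75-fold, adjusted p = 0.00739). Prdx1 read 5.70, 5.56 and 5.79 against 6.67, 6.54 and 6.70, a rise of 0.95 ± 0.19 (1.93-fold, adjusted p = 0.00551). Slide by slide this was 0.97, 0.98 and 0.91. Both turned negative on spike-in scaling, at -0.30 ± 0.33 and -0.16 ± 0.39, neither called. Prdx6, the peroxiredoxin that uses glutathione, rose by 0.71 ± 0.23 (adjusted p = 0.0428; -0.40 on spike-in scaling).

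Txn1 read 4.63, 4.93 and 5.04 untreated and 5.30, 5.66 and 5.98 with curcumin, which did not overlap on this scaling. Such separation was common: 26 members and 47.5% of all genes were higher on every curcumin array than on any untreated one, and 0 members and 8.81% of all genes on both scalings. The Txn1 difference of 0.78 ± 0.32 missed the threshold (adjusted p = 0.082; -0.33 on spike-in scaling). Srxn1 read 4.84, 4.36 and 4.83 against 5.76, 5.55 and 4.55, with replicate 3 of the curcumin group inside the untreated range and a difference of 0.61 ± 0.51 (adjusted p = 0.346). The other probes of Srxn1 gave another picture, described further on.

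The NADPH genes shifted by similar and smaller amounts. Taldo1 (0.74 ± 0.21, adjusted p = 0.024) and Tkt (0.72 ± 0.24, adjusted p = 0.0462), transaldolase and transketolase of the pentose phosphate pathway, were called. G6pdx, glucose-6-phosphate dehydrogenase, which makes the first NADPH of that pathway, read 5.10, 5.03 and 5.08 untreated and 5.67, 5.40 and 5.57 with curcumin, a difference of 0.47 ± 0.17 (adjusted p = 0.0559). Me1, malic enzyme, read 1.06, 1.12 and 1.29 against 1.35, 1.63 and 1.90, with 0.47 ± 0.22 (adjusted p = 0.122). Like Txn1, both genes were higher on all curcumin arrays on 75th-percentile scaling and lower on all of them on spike-in scaling. On spike-in scaling all 6 genes were negative, where only 2822 of all 19315 genes tested were positive. Me1 (-0.64, adjusted p = 0.0464) and Idh1 (-0.96, adjusted p = 0.0319) were called lower there, as 42.4% of all genes were.

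Nqo1 led the phase II genes. It is a dim probe here, at -4.89, -3.72 and -3.43 untreated and -3.15, -2.35 and -2.27 with curcumin, well above background on all 12 arrays. The lowest curcumin array stood above the highest untreated one, and the rise was 1.42 ± 0.42 (2.67-fold, adjusted p = 0.0308; 0.31 ± 0.53 on spike-in scaling). Within the slides it was 1.74, 1.37 and 1.15. Gstm1, a glutathione transferase, rose by 0.75 ± 0.21 (adjusted p = 0.023; -0.35 on spike-in scaling). The other 10 ran from -0.18 (Abcc4, a nucleotide and conjugate pump) to 0.78 (Gsto1), and Abcc4 was lowest on spike-in scaling too (-1.29, adjusted p = 0.00698). A second Abcc4 probe read 0.51 and -0.59 on the 2 scalings and was not called.

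Osgin1, an oxidative stress response gene, read 1.29, 1.04 and 1.25 untreated and 2.89, 2.90 and 1.79 with curcumin, a rise of 1.33 ± 0.37 (adjusted p = 0.0225; 0.23 on spike-in scaling). Replicate 3 was the lowest of the curcumin group but lay above all untreated arrays. Cat (catalase) and Sod1 (the copper-zinc superoxide dismutase) differed by 0.62 ± 0.24 and 0.75 ± 0.29 (adjusted p = 0.0676 and 0.0669; -0.49 and -0.36 on spike-in scaling).

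The gene of NRF2 itself came last of the 36 by fold change. Nfe2l2 read 4.05, 4.0 and 4.08 untreated and 3.83, 3.73 and 3.29 with curcumin, all 3 below every untreated array. The difference was -0.43 ± 0.30 (adjusted p = 0.265), and Nfe2l2 was the only member whose curcumin arrays were all lower on both scalings (17.9% of all genes were so). On spike-in scaling it was -1.54 ± 0.51 (adjusted p = 0.0293). Keap1 differed by -0.09 ± 0.24, and by -1.20 ± 0.44 on spike-in scaling (adjusted p = 0.0428).

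**Figure D2:**
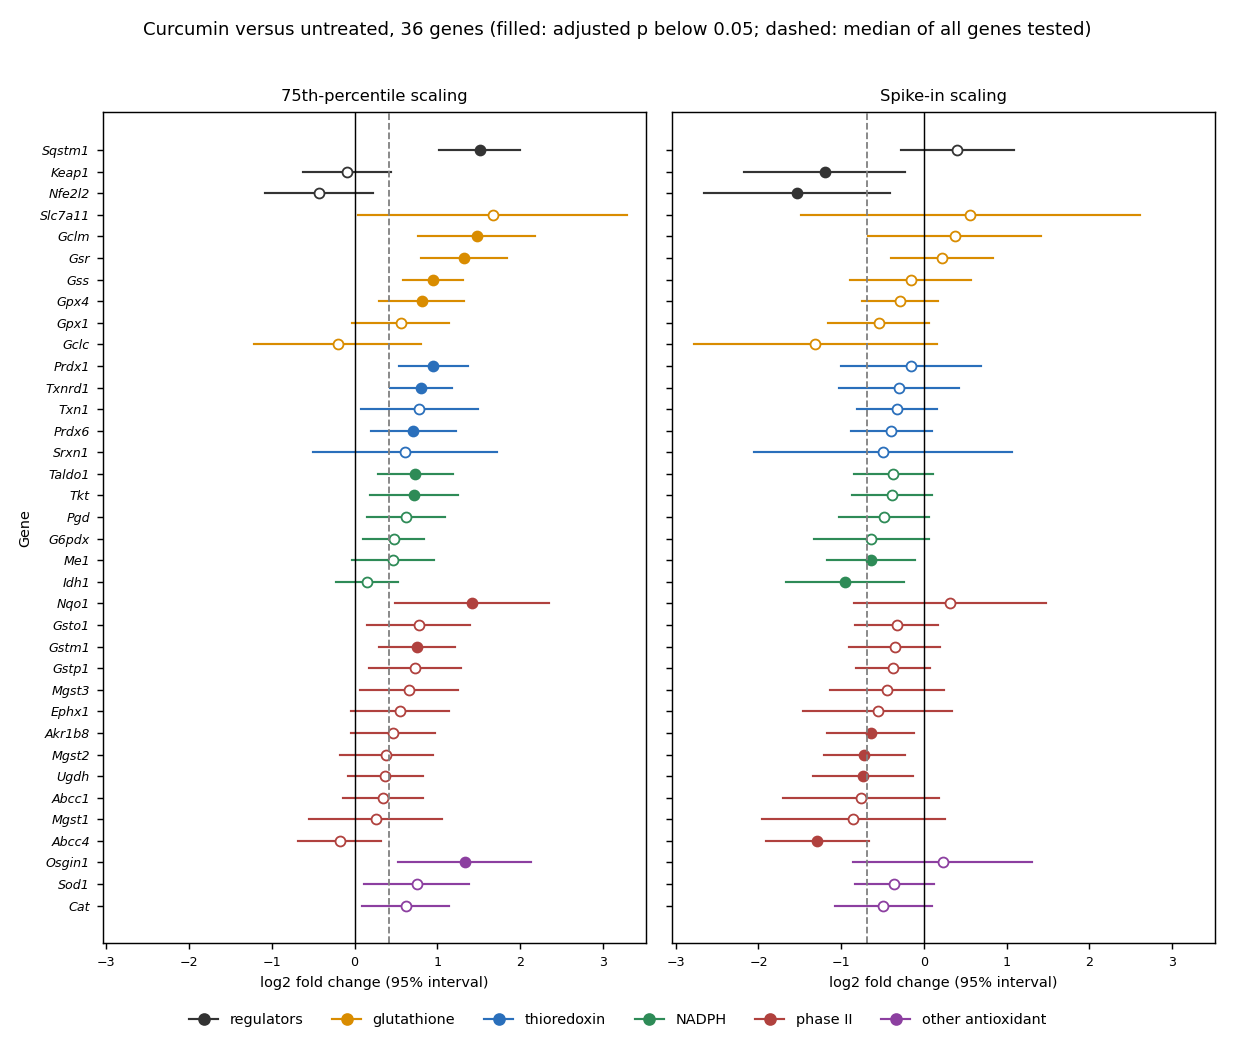
Log2 fold changes of the 36 genes for curcumin versus untreated (x axis, points with 95% intervals, 3 arrays per group), grouped and coloured by role, on 75th-percentile scaling (left) and spike-in scaling (right). Filled points have an adjusted p below 0.05: 13 genes to the right of 0 on the left panel and 8 genes to the left of 0 on the right panel, while the dashed median of all genes tested moves from 0.41 to -0.69.

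Slides and single arrays moved these counts. With the slide as a block, 20 members were called higher after curcumin and 0 lower, against 31.2% and 10.9% of all genes, the added genes being Txn1, G6pdx, Pgd, Me1, Ephx1, Gstp1 and Cat. The count was 6 without curcumin or untreated replicate 2, 7 without curcumin replicate 3 or untreated replicate 1 or 3, 8 without curcumin replicate 1, and 24 without LPS+curcumin replicate 3. The share of all genes called in these fits is not given, so the counts do not single out the members. Without LPS+curcumin replicate 1 the count was 21, against 36.8% of all genes, and on spike-in scaling 12 were called lower and 0 higher, against 55.1% and 8.09%. Gclm, Gsr, Gss, Prdx1, Sqstm1 and Txnrd1 kept their call in each of the 12 fits without 1 array. On quantile scaling 5 were called higher, against 12% of all genes, and on median scaling 0 higher and 2 lower (Nfe2l2 and Abcc4), against 8.17% and 25.1%.

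With LPS present, curcumin was followed by the same number of calls on 75th-percentile scaling, 13 higher and 0 lower, against 12.7% and 6% of all genes. At an unadjusted p below 0.05 in limma, 23 were higher and 0 lower, against 26.4% and 10.9% of all genes. The 13 called were Sqstm1, Gclm, Gss, Gsr, Gpx4, Txnrd1, Prdx1, Taldo1, Nqo1, Gstm1, Ephx1, Cat and Osgin1. On spike-in scaling 0 were called in either direction, against 4.8% and 12% of all genes. There, 1 was higher (Gclm) and 2 lower (Abcc4 and Keap1) at an unadjusted p below 0.05, against 7.85% and 29.9% of all genes. On both scalings together 4.8% of all genes were called higher and 5.99% lower. The members' median was 0.68 against 0.32 for all genes, and -0.06 against -0.41 on spike-in scaling. These became 0.81 against 0.47, and -0.30 against -0.64, without LPS+curcumin replicate 1. In this contrast 30 of the 36 lay above the median of all genes, with the median member at percentile 74.4 and Gclm (94) and Nqo1 (91.3) in the top 10%. Without LPS+curcumin replicate 1 the median member stood at 67.2 and 0 were in the top 10%.

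The contrasts with and without LPS compare different arrays, but their calls share each gene's error, pooled over all 12. They shared 11 called members, which is 84.6% of each list of 13. Of all genes tested they shared 1967, which is 46.5% of the 4226 called higher without LPS and 79.9% of the 2461 called with it. Tkt and Prdx6 were called without LPS and not with it, and Cat and Ephx1 the other way round. With the slide as a block, Prdx6 was called with LPS too (adjusted p = 0.0413), and Cat and Ephx1 without it (adjusted p = 0.0148 and 0.0353). The interaction, the test of the difference between both curcumin effects, called 0 of the 36 members in either direction on either scaling. Of all genes, 0.0207% were called higher and 0.709% lower, or 0.0155% and 0.274% on spike-in scaling. At an unadjusted p below 0.05 in limma, 0 members passed on either scaling. Of all genes, 1.76% were then higher and 4.88% lower, or 2.91% and 2.52% on spike-in scaling.

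Gclm had the largest fold change of the members here. It read -1.40, -1.11 and -0.59 with LPS and 1.12, 1.09 and 0.20 with both agents, without overlap. Such separation held for 20 members and 19.4% of all genes, and on both scalings for 0 members and 6.07% of all genes. The rise of Gclm was 1.84 ± 0.32 (3.58-fold, adjusted p = 0.005). On spike-in scaling the value was 1.1 ± 0.47 (adjusted p = 0.116), and within the slides 75th-percentile scaling gave 2.52, 2.20 and 0.79 and spike-in scaling 2.65, 1.29 and -0.63. With LPS+curcumin replicate 1 left out the value was 1.68 (adjusted p = 0.00234), or 0.57 (adjusted p = 0.232) with the spike-ins. Gclc read 1.74, 1.86 and 2.18 with LPS and 4.08, 3.35 and 1.86 with both. Replicates 1 and 2 with both agents lay above every array of the other 3 groups and replicate 3 among the LPS arrays, and the difference of 1.17 ± 0.46 missed the threshold (adjusted p = 0.0926; 0.43 on spike-in scaling). Within the slides it was 2.34, 1.49 and -0.31, and without LPS+curcumin replicate 1 it was 0.68.

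Gss rose by 0.98 ± 0.17 (adjusted p = 0.00418; 0.24 on spike-in scaling). Gss and Gclm were the members called in each of the 12 fits without 1 array. Gsr read 2.90, 2.87 and 2.29 with LPS and 3.32, 3.74 and 3.74 with both, a rise of 0.91 ± 0.24 (adjusted p = 0.025; 0.17 on spike-in scaling). Its other 2 probes gave 0.34 and 0.38 and were not called. Nqo1 read -4.32, -3.49 and -3.16 with LPS and -1.81, -2.45 and -2.43 with both, without overlap. It rose by 1.43 ± 0.42 (2.69-fold, adjusted p = 0.04; 0.69 on spike-in scaling), nearly the value without LPS, and the interaction was 0.01 with an interval of -1.31 to 1.33.

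Sqstm1 read 7.51, 7.07 and 6.96 with LPS and 8.10, 8.11 and 8.43 with both. On this scaling all arrays with both agents lay above those with 1 agent, whose groups overlapped, and the untreated arrays lay lowest. The rise over LPS was 1.03 ± 0.22 (adjusted p = 0.012; 0.30 on spike-in scaling). Txnrd1 read 7.20, 7.01 and 6.93 with both agents against 6.58, 6.46 and 6.24 with LPS, a rise of 0.62 ± 0.17 (adjusted p = 0.0325) that turned on spike-in scaling, at -0.12 ± 0.33. The order of its groups depended on the scaling: the spike-in means were 5.06 with LPS, 4.94 with both agents, 4.51 untreated and 4.21 with curcumin (n = 3 each). Prdx1 read 7.39, 7.08 and 6.79 with both against 6.26, 6.21 and 6.43 with LPS, a rise of 0.78 ± 0.19 (adjusted p = 0.0199; 0.04 on spike-in scaling).

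Nfe2l2 and Keap1 did not pass the test in this contrast. Nfe2l2 read 4.95, 4.38 and 3.57 with both agents against 4.64, 4.61 and 4.57 with LPS, a spread wider than in any other group. Its difference was -0.31 ± 0.30, or -1.05 ± 0.51 on spike-in scaling. Keap1 read 3.21, 2.58 and 2.37 with both agents against 3.40, 2.90 and 3.08 with LPS, a difference of -0.41 ± 0.24, or -1.15 ± 0.44 on spike-in scaling.

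Results of this contrast also depended on LPS+curcumin replicate 1. Without it, on 75th-percentile scaling 24 members were called higher, against 40% of all genes. Keap1 and Nfe2l2 were called lower, at -0.66 (adjusted p = 0.0194) and -0.63 (adjusted p = 0.0485), against 14.8% of all genes. On spike-in scaling they were called lower too (-1.77, adjusted p = 0.000235, and -1.74, adjusted p = 0.000976), with 9 members lower in all, against 46.5%, and 0 higher, against 8.4%. These 2 genes were thus called lower on both scalings without that array, and had negative values but no call on either with it. The spike-in values of several members called on 75th-percentile scaling moved as well, to -0.57 for Txnrd1 (adjusted p = 0.0311, called lower), -0.48 for Prdx1, -0.21 for Gss, -0.06 for Gsr, -0.02 for Sqstm1 and 0.11 for Nqo1, the last 5 not called. The count of higher calls was also small without LPS replicates 1, 2 or 3 (6, 4 and 3), LPS+curcumin replicate 2 (4), or replicate 2 of curcumin or of the untreated cells (7 each). It was 17 with the slide as a block, against 20.1% of all genes. For the other single-array fits just named the share of all genes is not given, so their counts do not single out the members.

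**Figure D3:**
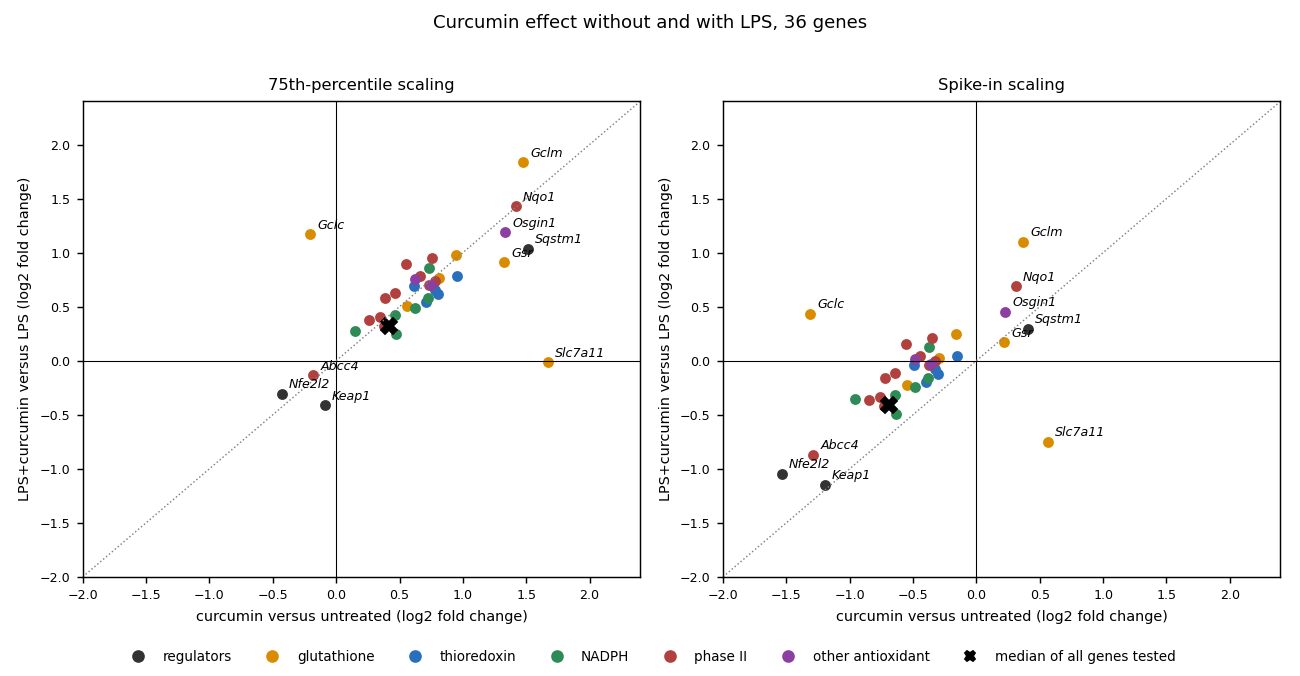
Log2 fold change of each of the 36 genes for curcumin versus untreated (x axis) and for LPS+curcumin versus LPS (y axis), coloured by role, on 75th-percentile scaling (left) and spike-in scaling (right); the cross is the median of all genes tested and the dotted line marks equal effects. Gclm, Nqo1, Osgin1, Sqstm1 and Gsr lie at the upper right, Nfe2l2, Keap1 and Abcc4 at the lower left, and Slc7a11 and Gclc far from the line.

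LPS added to curcumin gave 0 calls among the members in limma, against 0.202% of all genes higher and 0.0104% lower, and 0 on spike-in scaling, against 0.0984% and 0.0104%. On both scalings together 0.0932% of all genes were called higher. At an unadjusted p below 0.05, 6 were higher (Abcc1, Nfe2l2, Prdx1, Slc7a11, Sqstm1 and Txnrd1) and 1 lower (Idh1), against 2.88% and 2.97% of all genes. On spike-in scaling 3 were higher and 0 lower at that threshold, against 2.08% and 2.88% of all genes. By place, 8 of 36 lay in the top 10% and 0 in the bottom 10%, and the median member stood at percentile 62.3. The 8 were Slc7a11 (99.5), Srxn1 (98), Sqstm1 (96.6), Nfe2l2 (95.8), Txnrd1 (95.3), Abcc1 (95), Gclm (91.6) and Prdx1 (91.5). Without LPS+curcumin replicate 1 only 3 stayed there, Slc7a11 (98.1), Sqstm1 (95.8) and Txnrd1 (90.1). Sqstm1 (0.78 ± 0.22) and Txnrd1 (0.64 ± 0.17) were the members whose arrays did not overlap on either scaling, as held for 1.12% of all genes. Their adjusted p-values were 0.489 and 0.427. Without LPS+curcumin replicate 1, limma again called 0 members in either direction, against 0.305% of all genes higher and 0.0414% lower, and 0.192% and 0.0259% on spike-in scaling as on both scalings together.

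**Figure D4:**
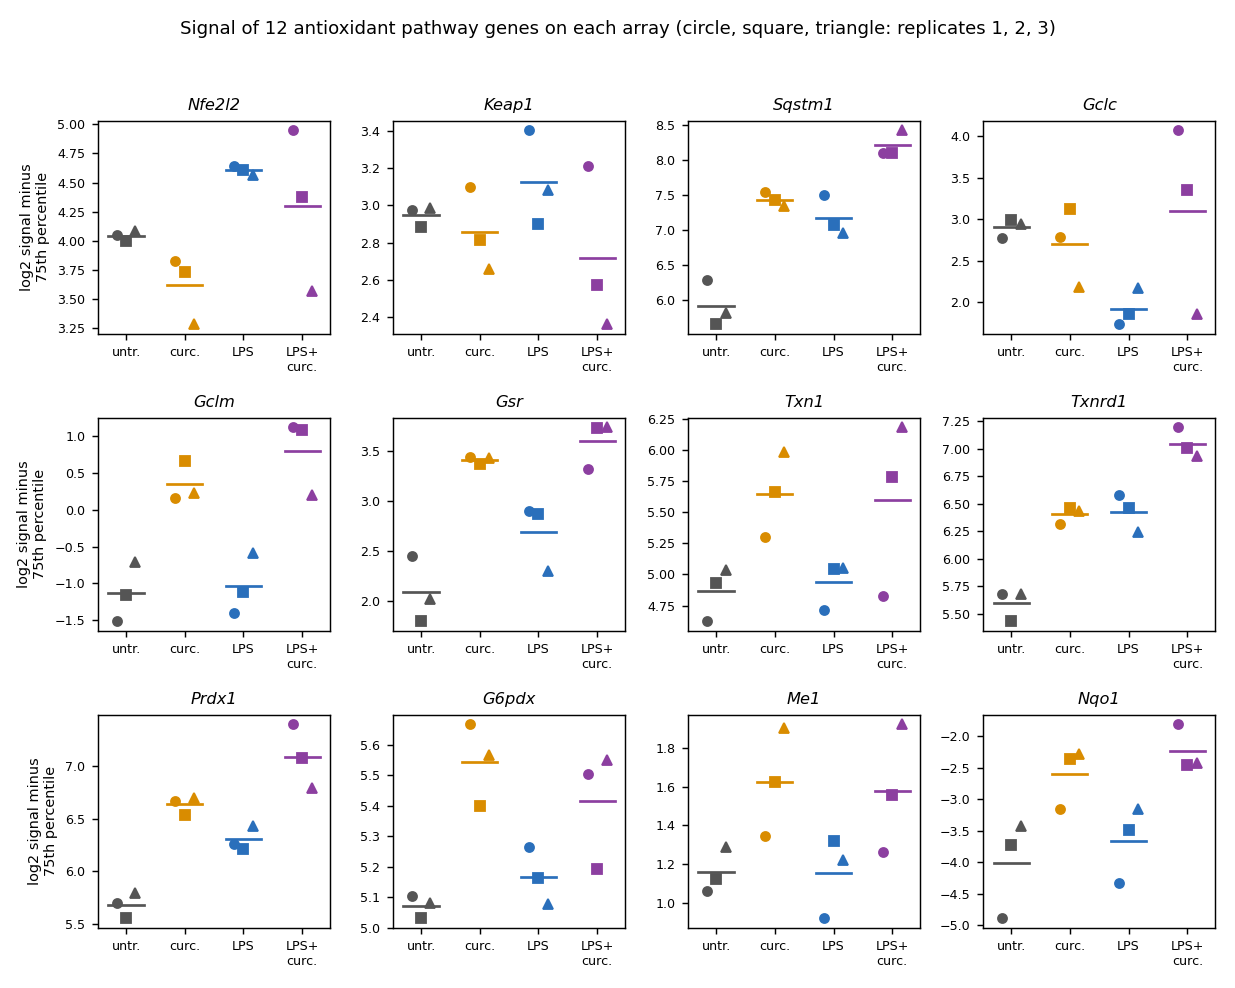
Log2 signal minus the array's 75th percentile (y axis) of 12 of the genes on each of the 12 arrays, by group (x axis); circles, squares and triangles are replicates 1, 2 and 3 and bars are group means. Sqstm1, Gclm, Gsr, Txnrd1, Prdx1 and Nqo1 are higher on this scaling, though called on spike-in scaling in neither contrast, in both curcumin groups than in their controls, whereas Nfe2l2 and Gclc spread from 4.95 to 3.57 and from 4.08 to 1.86 across the LPS+curcumin replicates.

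Slc7a11 and Srxn1 have 3 probes each, every one to the same RefSeq accession (NM_011990 and NM_029688), and the probes did not read alike. The probe of Slc7a11 that stood for the gene, A_52_P368057, read -1.46, -1.11 and -2.43 with curcumin and 2.09, 0.53 and -1.66 with both agents. The spread with both agents was 1.88 (SD, n = 3), against 0.03 with LPS, and neither curcumin contrast was called (1.67 ± 0.74, adjusted p = 0.101, and -0.01 ± 0.74, adjusted p = 0.991). The 1.67 after curcumin was called without LPS+curcumin replicate 1 (adjusted p = 0.0223; 0.56 on spike-in scaling, adjusted p = 0.378). Curcumin added to LPS then gave -0.90 (adjusted p = 0.206). With the spike-ins it gave -2.01, which was called lower (adjusted p = 0.0173). Probe A_52_P663446 followed it, at 1.76 and 0.28.

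Probe A_51_P129502, singled out after its values were seen, read -5.60, -5.29 and -4.14 untreated and -1.93, -0.74 and -0.45 with curcumin. It read -1.88, -1.58 and -1.89 with LPS and 0.93, 1.36 and 0.87 with both agents, so that both agents together lay above every other array. In a fit of all 25526 probes that passed the filter, it rose by 3.97 ± 0.42 with curcumin (adjusted p = 0.000401), by 3.23 ± 0.42 with LPS (adjusted p = 8e-04) and by 2.84 ± 0.42 with curcumin added to LPS (adjusted p = 0.00229). All 3 were also called on spike-in scaling, at 2.87 (adjusted p = 0.00168), 2.95 (adjusted p = 0.00243) and 2.10 (adjusted p = 0.0103). Of the 55 probes of the members it was the only one called higher on both scalings in either curcumin contrast, against 6.54% and 4.43% of all probes. What separates it from the other 2 probes was not tested.

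Srxn1 showed a milder form of the same. Probes A_51_P330125 and A_52_P593200 were called higher with curcumin (1.01, adjusted p = 0.0412, and 0.98, adjusted p = 0.0261) and with curcumin added to LPS (1.29, adjusted p = 0.024, and 1.24, adjusted p = 0.0147), while the brightest probe was called in neither. On spike-in scaling they read -0.09 and -0.13, and 0.55 and 0.50, with no call. A_52_P593200 read 2.42, 1.91 and 2.37 untreated, 3.42, 3.29 and 2.93 with curcumin, 3.28, 3.00 and 3.11 with LPS, and 4.90, 4.45 and 3.76 with both agents. On 75th-percentile scaling the single-agent groups overlapped and lay above the untreated arrays, and all arrays with both agents lay above these. On spike-in scaling the curcumin arrays (0.57 to 1.36) overlapped the untreated ones (0.93 to 1.44), and those with both agents (1.14 to 3.54) overlapped those with LPS (1.59 to 1.91). In the fit of all probes 26 of the 55 member probes were called higher with curcumin, against 22.6%, and 19 with curcumin added to LPS, against 13.3%.

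**Figure D5:**
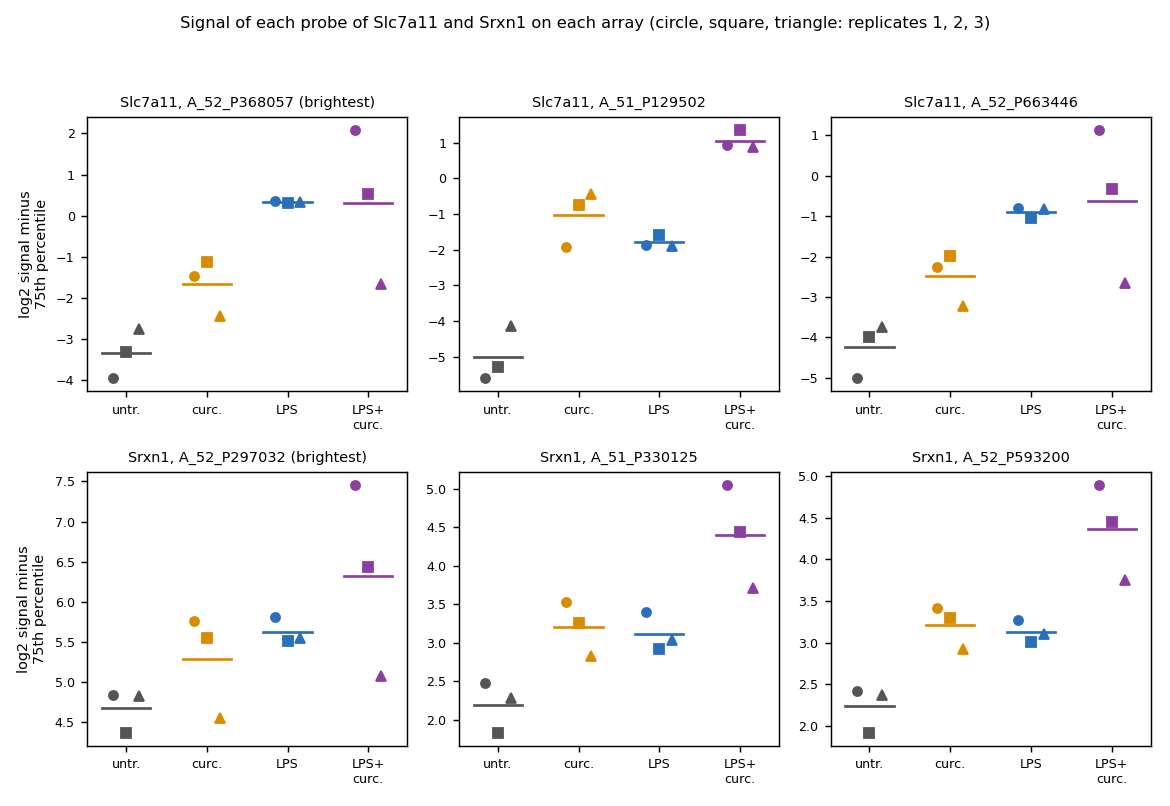
Log2 signal minus the array's 75th percentile (y axis) of the 3 probes of Slc7a11 (top) and of Srxn1 (bottom) on each of the 12 arrays, by group (x axis); circles, squares and triangles are replicates 1, 2 and 3 and bars are group means. With both agents the Slc7a11 probe in the middle stays between 0.87 and 1.36 whereas the brightest one runs from -1.66 to 2.09.

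Other genes of the same pathways were counted from 2 lists. Of 23 other NRF2 targets and regulators, 21 were tested. On 75th-percentile scaling 1 was called higher after LPS, 7 after curcumin, 5 after curcumin added to LPS and 1 after LPS added to curcumin, against 4.12%, 21.9%, 12.7% and 0.202% of all genes, and 0 were called lower. On spike-in scaling 1 was called higher in each of these contrasts, against 1.82%, 7.21%, 4.8% and 0.0984% of all genes. There, 4 were called lower after curcumin and 1 after curcumin added to LPS, against 42.4% and 12% of all genes. The best known target, Hmox1 (haem oxygenase 1), rose by 3.69 ± 0.29 with curcumin (adjusted p = 7.4e-05) and by 3.25 ± 0.29 with LPS present (adjusted p = 0.000255), and held on spike-in scaling, at 2.58 and 2.51 (adjusted p = 0.000824 and 0.00124). It was the only gene of that list higher on both scalings in those contrasts. Behind it with curcumin came Slc48a1, a haem transporter (1.32 ± 0.18), Mafk, which encodes a small MAF partner of NRF2 (1.46 ± 0.29), and Abcc2, an export pump (1.05 ± 0.22), with 0.21, 0.36 and -0.06 on spike-in scaling. Bach1, which encodes the repressor that competes with NRF2 at Hmox1, rose by 1.0 ± 0.28 with curcumin (adjusted p = 0.0251) and by 1.55 ± 0.28 with LPS present (adjusted p = 0.00595), with -0.11 and 0.81 on spike-in scaling. Maff, another small MAF gene, rose with LPS on both scalings, by 1.84 ± 0.23 (adjusted p = 0.000593) and 1.56 (adjusted p = 0.00489).

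Of 54 other glutathione, thioredoxin and NADPH genes, 41 were tested. On 75th-percentile scaling 2 were called higher and 1 lower after LPS (4.12% and 1.61% of all genes), 14 higher and 3 lower after curcumin (21.9% and 7.27%), and 7 higher and 3 lower after curcumin added to LPS (12.7% and 6%). On spike-in scaling the balance turned after curcumin, with 2 higher and 9 lower (7.21% and 42.4% of all genes), and after curcumin added to LPS, with 1 higher and 5 lower (4.8% and 12%). After LPS it was 1 higher and 0 lower (1.82% and 1.39%). Chac1, which degrades glutathione, rose by 4.03 ± 0.88 with curcumin (adjusted p = 0.00858), and Sesn2, which encodes the stress protein sestrin 2, by 2.99 ± 0.38 (adjusted p = 0.00083). Both were called with the spike-ins too, Chac1 at 2.92 (adjusted p = 0.0134) and Sesn2 at 1.88 (adjusted p = 0.00278). Slc3a2, the heavy chain that pairs with the Slc7a11 importer, rose by 0.97 ± 0.17 with curcumin (adjusted p = 0.00354) and 0.86 ± 0.17 with LPS present (adjusted p = 0.00954), with -0.14 and 0.12 on spike-in scaling. Chac2, the constitutive relative of Chac1, fell on both scalings in both contrasts, with curcumin by 0.78 (log2 fold change -0.78, adjusted p = 0.0154). H6pd, the glucose-6-phosphate dehydrogenase of the endoplasmic reticulum, was lower too, at -1.20 (adjusted p = 0.0288), and at -2.31 on spike-in scaling (adjusted p = 0.0107). After LPS the mitochondrial superoxide dismutase gene Sod2 rose on both scalings (1.54 ± 0.22, adjusted p = 0.00144, and 1.26, adjusted p = 0.0199). Nadk, the kinase that makes NADP from NAD, rose with LPS by 1.17 (adjusted p = 0.00565; 0.90 on spike-in scaling, adjusted p = 0.2). With curcumin added to LPS it fell on both scalings, with log2 fold changes of -0.93 (adjusted p = 0.014) and -1.67 (adjusted p = 0.01).

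The calls were also counted by promoter core. After curcumin 3 of the 12 tested members with the core and 8 of the 20 tested members with an entry but no core were called higher on 75th-percentile scaling, against 21.9% of all genes. With LPS present these counts were 3 of 12 and 9 of 20, against 12.7%. On spike-in scaling 0 members were called higher in either contrast. The 3 with the core were Gclm, Prdx1 and Txnrd1 in both contrasts, whose stretches are printed above. Elements outside the window were not searched for, so the split does not separate genes with an element from genes without one.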

How the data were processed

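Per the labels' protocols, BV-2 RNA was amplified to Cy3-labelled cRNA for Agilent arrays of 1 colour. The authors read the intensities off the scans with Feature Extraction, 10.5.1.1 in the file headers but 9.1 in the submitters' processing notes, and the processed signal used here already has background subtracted. The authors' series-wide values were these intensities within 0.397%. From these, log2 signals were computed here, outlier spots dropped, spots of a probe averaged, and each array's 75th percentile (alternatively the mean of 7 of 10 E1A spike-ins) subtracted. Of the probes, 25097 carried 1 of 17305 symbols through RefSeq accessions (assembly GRCm38.p6). A probe was tested where some group had it well above background on each of its 3 arrays. For Idh1 the outlier spot of LPS+curcumin replicate 2 was dropped, so that group has 2 values.

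limma 3.58.1 (R 4.3.3) fitted 4 group means over 12 arrays, with 8 residual degrees of freedom, two-sided p-values and Benjamini-Hochberg adjustment; it was tested on simulated data. Replicate number equals slide, per the file headers. Same-numbered arrays deviated from their group means with correlations of -0.02 to 0.71 (16 of 18 over 0.1), and a fit with slide as block was an alternative. The files hold no mean signal, so normexp (offset 50) used the median signal. The members, gene lists and the rule for named genes were chosen with earlier results of these data known. By that rule, Nfe2l2, Keap1, Nqo1, Gclc, Gclm, Gsr, Slc7a11, Txnrd1, Srxn1, Txn1, Prdx1, G6pdx and Me1 get values per array whatever their test, as does any member called on both scalings (0 were), and other lists up to 4 called genes per contrast. Sqstm1, Osgin1 and the other probes of Slc7a11 and Srxn1 were shown per array, and Chac2 and H6pd named, after their values were seen. Other alternatives were quantile and median scaling, the deposited table, no or a stricter filter, the mean of a gene's probes, the 2 groups alone, and each array left out.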

Additional observations from a re-analysis of the deposited data

How the results depend on the processing

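For 29 member values called on 75th-percentile scaling, 22 alternatives each gave 638 values: 392 stayed called in the same direction, 226 were no longer called and 20 turned negative without a call. Turned values after curcumin on spike-in scaling were Gss -0.16, Gpx4 -0.29, Txnrd1 -0.30, Prdx1 -0.16, Prdx6 -0.40, Taldo1 -0.37, Tkt -0.39 and Gstm1 -0.35. On median scaling they were Gpx4 -0.025, Txnrd1 -0.032, Prdx6 -0.13, Taldo1 -0.10, Tkt -0.12 and Gstm1 -0.084. With normexp they were Gpx4 -0.028, Prdx6 -0.10, Taldo1 -0.041 and Tkt -0.086. With curcumin added to LPS, Txnrd1 was -0.12 on spike-in and -0.11 on median scaling.

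Counts of members called higher for LPS, curcumin and curcumin added to LPS (3, 13 and 13) became 0, 0 and 0 on spike-in scaling, 1, 0 and 0 on median scaling, 1, 1 and 0 with normexp, and 7, 24 and 0 with only the 2 groups compared. On quantile scaling the last 2 were 5 and 7, against 12% and 7.09% of all genes, and without a filter on dim probes the last was 7. Without slide 2 they were 0, 0 and 0, and without slide 3 they were 1, 4 and 2. Leaving out single arrays gave 1 to 5, 6 to 24 and 3 to 24, and 0 to 1 for LPS added to curcumin. Calls lower for LPS were 2 with only the 2 groups compared, 1 on spike-in scaling without LPS+curcumin replicate 1, and 0 to 1 with single arrays left out. Calls lower for curcumin were 8 on spike-in scaling, 12 there without LPS+curcumin replicate 1, and 2 on median scaling. Calls lower for curcumin added to LPS were 9 on spike-in scaling without LPS+curcumin replicate 1, and 0 to 2 with single arrays left out. The share of all genes is not given for the normexp, 2-group, filter, slide and single-array fits, save that without LPS+curcumin replicate 1. Their counts therefore do not single out the members.

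With slide as the replicate block, counts higher were 3, 20 and 17, with no call lost. On spike-in scaling with that block they were 1, 0 and 0 higher, and 8 (curcumin) and 1 (curcumin added to LPS) lower, with the share of all genes not given. Spike-in scaling without LPS+curcumin replicate 1, the spike-in block, the slides left out and the fit of every probe were chosen after seeing the data. Where calls changed, the cause was not tested. Dim genes such as Nqo1, and the few arrays, limit what can be seen.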
